A study of Mus musculus with 8 samples.

Results

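The JAK, STAT and SOCS genes described here are Jak1, Jak2, Jak3, Tyk2, Stat3, Stat5a, Socs1, Socs2 and Socs3, 9 of the 55679 genes in the deposited expression table, chosen by name as core genes of cytokine signalling. They were measured by RNA-seq in left ventricles of wild-type male C57BL/6J mice, in 4 libraries of animals given saline (control) and 4 of animals given the pressor peptide angiotensin II (ANG II, 1500 ng/kg/min). Both groups were treated for 7 days through an osmotic mini-pump under the skin, no allele or other agent set them apart, and their hearts were flushed with saline before collection. The comparison asks how the genes of this pathway differ in the pressure-loaded ventricle. Age was not given in the sources used here.

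Receptors of many cytokines have no kinase of their own and carry a Janus kinase (JAK) on the inner side of the membrane. When a ligand joins the receptor chains, the JAKs phosphorylate each other, the receptor and then the STAT proteins, which pair, enter the nucleus and bind DNA at short palindromes. SOCS genes are among the genes that STATs switch on, and SOCS proteins block the JAKs or the receptor, which closes a negative feedback loop. In the heart the pathway is best known for carrying signals of the interleukin 6 family through the shared receptor chain gp130 and STAT3, and those of growth hormone through JAK2 and STAT5.

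Promoter windows of Socs3 and Socs1 are shown. The Socs3 window held a STAT motif, and the Socs1 window held an interferon-type motif that was not in the first search. Socs3 was higher in ANG II, and no difference was detectable for Socs1. Each window runs from 250 bases before to 50 bases after the start of the gene (RefSeq, GRCm38.p6). The Socs3 window is chr11:117969317-117969616 on the minus strand, and its capitals mark a match to TTCNNNGAA (N is any base), the palindrome STAT dimers bind. The Socs1 window is chr16:10785487-10785786 on the minus strand, and its capitals mark a pair of overlapping matches to GAAA, 2 bases of any kind and GAAA again (the GAAA repeat), a core of interferon-type elements that was added to the search after the sequence had been seen.
Socs3: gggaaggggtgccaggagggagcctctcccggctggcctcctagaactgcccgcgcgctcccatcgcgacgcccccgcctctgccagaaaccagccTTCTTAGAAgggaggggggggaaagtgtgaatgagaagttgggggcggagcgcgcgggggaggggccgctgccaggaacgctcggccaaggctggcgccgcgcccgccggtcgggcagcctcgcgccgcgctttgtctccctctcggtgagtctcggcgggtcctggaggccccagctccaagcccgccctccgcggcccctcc
Socs1: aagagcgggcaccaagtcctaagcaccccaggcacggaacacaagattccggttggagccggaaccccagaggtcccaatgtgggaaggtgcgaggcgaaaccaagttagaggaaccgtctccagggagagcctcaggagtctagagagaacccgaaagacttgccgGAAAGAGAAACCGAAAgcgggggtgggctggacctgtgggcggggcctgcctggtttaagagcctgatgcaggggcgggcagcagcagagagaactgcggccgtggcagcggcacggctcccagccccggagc

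In Socs3 the match TTCTTAGAA lay 154 to 146 bases before the start. Windows were found for 8 of the 9 members, 9 windows in all, and those of Jak1, Jak2, Jak3, Tyk2, Stat3 and Stat5a held none of the motifs on either strand. TTCNNNGAA was present in 1 of the 9 member windows and in 8.3% of the 32851 windows of all genes. The longer spacing, TTC and GAA with 4 bases of any kind between them, was present in 0 of 9 and in 6.95% of all windows. The GAAA repeat was present in 1 of 9 and in 3.44% of all windows. Since it was added after the sequence had been seen, its count in the members cannot be weighed against that share. A match describes letters in the window and does not show that a factor was bound there.

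The libraries held 14455654 to 16564828 fragments each, read from the steps of the deposited values. FPKM, the deposited unit, scales fragments by transcript length and by the mapped total of the library. The cardiac label was checked against 10 cardiomyocyte markers, of which the alpha myosin heavy chain Myh6 was at 6618 to 10610 FPKM in every library. Of 20 leukocyte markers, 14 were called higher in ANG II, and their summed level was 104.8 to 146 FPKM in control and 303 to 377.5 FPKM in ANG II. All 8 fibroblast markers were called higher (523 to 781 against 2960 to 3451 FPKM summed), as were all 5 erythroid markers (96.8 to 487 against 580.7 to 2083 FPKM). Of the cardiomyocyte markers 2 of 10 were called lower (48630 to 49990 against 37870 to 40180 FPKM). Of 7 endothelial markers 1 was called higher, and of 7 smooth muscle and pericyte markers 3 were called higher and 1 lower. The sums of 4 atrial markers ranged from 1.16 to 48.8 FPKM in control and from 52.5 to 230.5 FPKM in ANG II. Of the 3 atrial markers tested, 1 was called higher. Bmp10 was too low to be tested, at 0 in every control library and at 0 to 0.029 FPKM in ANG II. In bulk tissue, more cells of a type and more RNA per cell cannot be told apart, and the part of these markers in the results below was not tested.

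**Figure D1:**
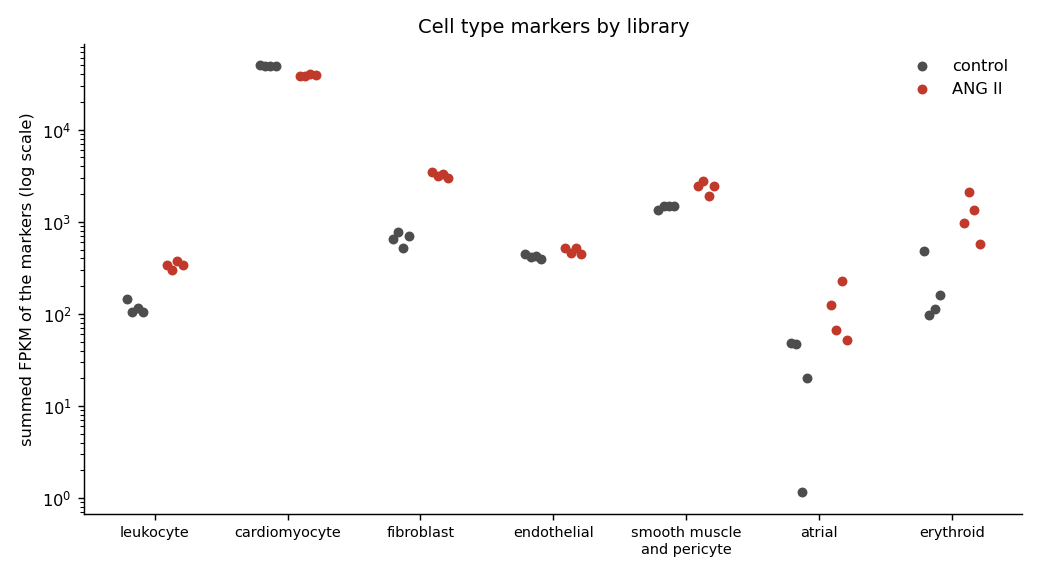
Summed FPKM of the cell type markers (vertical axis, log scale) in each of 4 control (grey) and 4 ANG II (red) libraries, 1 point per library. The leukocyte sums lay at 104.8 to 146 in control and 303 to 377.5 in ANG II, and the cardiomyocyte sums were lower in ANG II.

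Socs3, Socs2, Tyk2 and Jak3 were higher in ANG II, Socs3 by the widest margin among the members. Stat3 and Jak2 were higher by smaller fold changes, Socs1 differed by less than its spread, and Jak1 and Stat5a were the members with lower means. A gene was called when its limma p-value, adjusted by the Benjamini-Hochberg method over 19364 tested genes, fell below 0.05 with a log2 fold change beyond 0.5 in either direction. All 9 members passed the filter on low values (a mean of 0.1 FPKM). By this rule 4 of 9 members were called higher and 0 lower, where 14.0% of all tested genes were called higher and 1.41% lower. With the adjusted p-value alone, 6 members were higher (28.4% of all genes) and 0 lower (4.91% of all genes). The groups did not overlap at 6 members, all higher in ANG II (28.7% of all genes), and at 0 members lower in ANG II (5.06% of all genes). The median log2 fold change was 0.47 over the members and 0.15 over all tested genes, so the middle gene of the table lay above 0. At an unadjusted p under 0.05, 1 member was lower (Stat5a), as were 7.09% of all genes. Run on recovered fragments, voom called 4 members higher (18.9% of all genes) and 0 lower (2.01% of all genes).

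**Figure D2:**
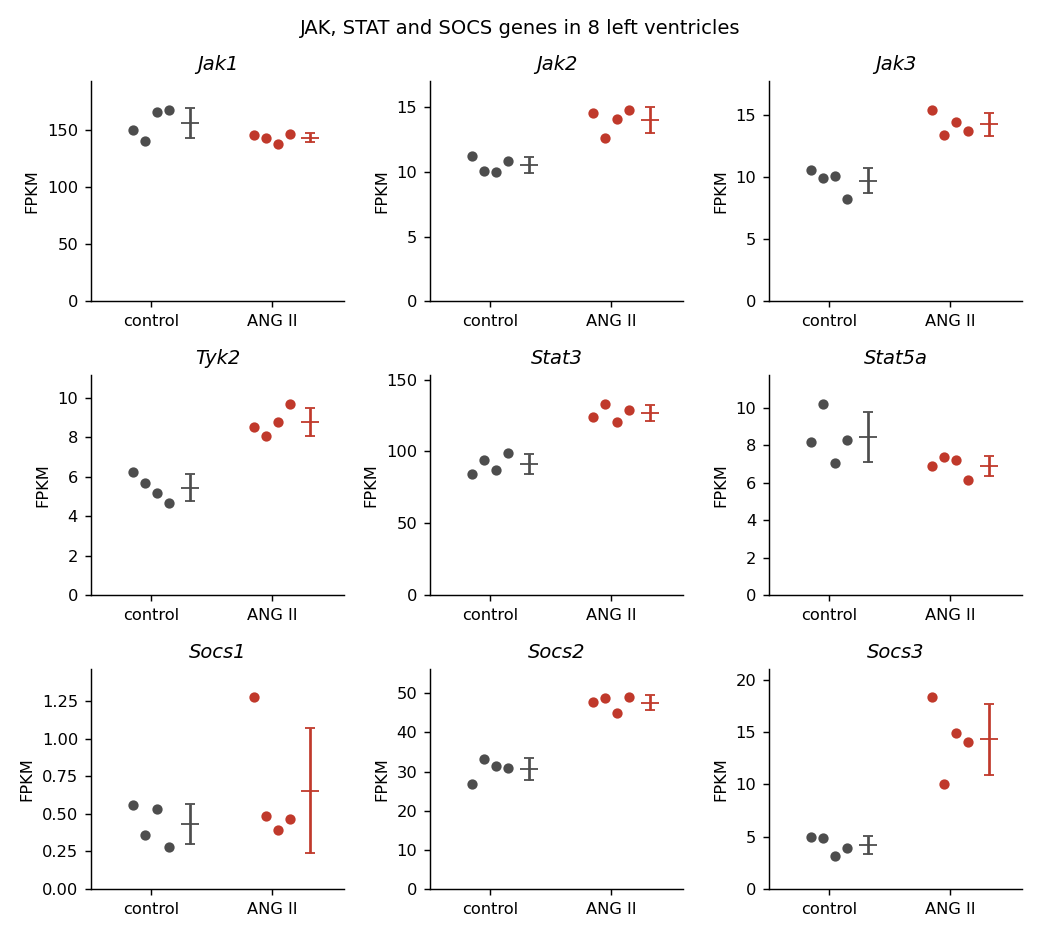
FPKM of each of the 9 genes (vertical axis, from 0, with its own scale per gene) in 4 control (grey) and 4 ANG II (red) libraries, with the mean and SD at the right of each group. The groups are apart for Jak2, Jak3, Tyk2, Stat3, Socs2 and Socs3 and overlap for Jak1, Stat5a and Socs1, whose highest ANG II library stood at 1.27 FPKM.

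Among the kinases, Jak1 (ENSMUSG00000028530, chr4:101152367-101265282, minus strand, GRCm38), the partner of gp130, interferon and common gamma chain receptors, was at 150.3, 141, 166 and 168 FPKM in control replicates 1 to 4. In ANG II replicates 1 to 4 it was at 146, 143, 138.5 and 147 FPKM. The groups overlapped, with 3 of 4 control libraries above every ANG II library. Its log2 fold change was -0.12 (SE 0.062, 95% interval -0.26 to 0.021, limma adjusted p = 0.178). Scaling the libraries by the median of ratios gave -0.35 (adjusted p = 0.00559), and over 17 alternatives the adjusted p-value ranged from 0.00559 to 0.382.

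Jak2 (ENSMUSG00000024789, chr19:29251828-29313080, plus strand), which serves growth hormone, erythropoietin and other single-chain receptors, was at 11.2, 10.02, 9.98 and 10.9 FPKM in control. The ANG II libraries were at 14.5, 12.6, 14.1 and 14.8 FPKM, all above the control libraries. Its log2 fold change was 0.38 (SE 0.073, limma adjusted p = 0.00311), below the fold threshold. Median-of-ratios scaling gave 0.17 (adjusted p = 0.0963), and over 17 alternatives the adjusted p-value ranged from 0.000799 to 0.176.

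Jak3 (ENSMUSG00000031805, chr8:71676296-71690575, plus strand), the kinase of the common gamma chain that is known chiefly from lymphoid and myeloid cells, was at 10.6, 9.93, 10.1 and 8.24 FPKM in control. It was at 15.4, 13.4, 14.5 and 13.7 FPKM in ANG II, and the lowest ANG II library stood above the highest control library. The log2 fold change was 0.51 (SE 0.085, limma adjusted p = 0.00141, called), close to the threshold. The call held in 12 of 17 alternatives, with adjusted p-values from 0.000256 to 0.0324. Without ANG II replicate 1 the log2 fold change was 0.48, and without control replicate 4 it was 0.44, both below the threshold. Exons of Insl3, a peptide hormone gene on the same strand, covered 7.55% of the exon bases of Jak3, and 6.93% of its 50-base words were shared with Insl3. Insl3, named after its values were seen, was at 1.87 to 4.33 FPKM in control and 2.86 to 3.72 FPKM in ANG II, ranges that overlapped.

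Tyk2 (ENSMUSG00000032175, chr9:21104068-21131243, minus strand), the kinase of interferon alpha and interleukin 12 type receptors, was at 6.26, 5.70, 5.196 and 4.65 FPKM in control. In ANG II it was at 8.53, 8.08, 8.80 and 9.71 FPKM. No library of either group lay within the range of the other. The log2 fold change was 0.60 (SE 0.098, limma adjusted p = 0.00122, called in 14 of 17 alternatives, adjusted p-values from 0.000154 to 0.0229). A gene on the opposite strand, 1700084C06Rik, covered 8.07% of its exon bases, and without a stated use of strand their reads cannot be told apart.

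Of the transcription factors, Stat3 (ENSMUSG00000004040, chr11:100885098-100939540, minus strand), the factor activated through gp130, was at 84.4, 94.2, 86.7 and 99.2 FPKM in control. It was at 124, 133, 121 and 129 FPKM in ANG II, again with no overlap. The log2 fold change was 0.47 (SE 0.061, limma adjusted p = 0.000334), which missed the fold threshold and passed it in 1 of 17 alternatives (without control replicate 4, 0.51). The adjusted p-value ranged from 7.69e-05 to 0.0249.

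Stat5a (ENSMUSG00000004043, chr11:100859351-100885169, plus strand), a factor of growth hormone, prolactin and interleukin 2 type signals, lies next to Stat3 on the other strand and was at 8.18, 10.2, 7.04 and 8.24 FPKM in control. The ANG II libraries were at 6.90, 7.34, 7.22 and 6.14 FPKM. The groups overlapped at control replicate 3. Its log2 fold change was -0.25 (SE 0.11, 95% interval -0.49 to -0.0047, limma adjusted p = 0.11). Stat5a and Stat3, side by side on the chromosome, thus had fold changes of opposite sign, and this held under each alternative. Under quantile normalization Stat5a was called lower (-0.53, adjusted p = 0.00487), and over 17 alternatives the adjusted p-value ranged from 0.00487 to 0.241. Stat5a shared 8.21% of its 50-base words with its paralog Stat5b.

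Socs3 (ENSMUSG00000053113, chr11:117966079-117970047, minus strand), the inhibitor that binds gp130 and the JAKs attached to it, was at 4.99, 4.87, 3.14 and 3.94 FPKM in control. It was at 18.3, 10.01, 14.9 and 14.0 FPKM in ANG II. Its lowest ANG II library was above each control library by a wide gap. The mean rose 3.38-fold, from 4.23 ± 0.868 to 14.3 ± 3.41 FPKM (SD over 4 libraries per group), and an exact permutation test, two-sided, gave p = 0.0286, the smallest that 70 allocations allow. Its log2 fold change was 1.53 (SE 0.18, limma adjusted p = 0.000178), higher than that of 98.8% of tested genes. Socs3 was called in each of 17 alternatives, with log2 fold changes from 1.26 to 1.75 and adjusted p-values from 6.31e-05 to 0.00112.

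Socs2 (ENSMUSG00000020027, chr10:95385362-95417180, minus strand), the inhibitor of growth hormone receptor signalling, was at 26.7, 33.3, 31.5 and 30.8 FPKM in control. In ANG II it was at 47.9, 48.8, 44.8 and 49.0 FPKM, a narrow range that lay above that of the control libraries. The mean rose from 30.6 ± 2.79 to 47.6 ± 1.91 FPKM (SD over 4 libraries per group), and the difference on the log2 scale was 0.63 with an SE of 0.07 (limma adjusted p = 0.000152). It was called in 14 of 17 alternatives, with adjusted p-values from 3.04e-05 to 0.00335.

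Socs1 (ENSMUSG00000038037, chr16:10782240-10785536, minus strand), the inhibitor of interferon receptor signalling, was at 0.559, 0.361, 0.530 and 0.276 FPKM in control, from 23, 15, 25 and 12 fragments. It was at 1.27, 0.485, 0.395 and 0.462 FPKM in ANG II, from 55, 22, 17 and 21 fragments. Only ANG II replicate 1 lay above the control range. The log2 fold change was 0.18 (SE 0.16, 95% interval -0.18 to 0.55, limma adjusted p = 0.42), so a difference was not detectable at this spread and depth. Over 16 alternatives the adjusted p-value ranged from 0.302 to 0.912.

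These calls depended on how libraries were scaled. Median-of-ratios scaling brought the median log2 fold change of all tested genes from 0.15 to 0.004. It left 1 member called higher, Socs3 (8.62% of all genes called higher), and 0 lower (4.15% of all genes). Quantile normalization, with a median of -0.044, left Socs3 called higher (7.3% of all genes) and Stat5a lower (5.09% of all genes). Socs3 was thus the member called under each scaling, at 1.33 and 1.26 on the log2 scale. Jak3 (0.30 and 0.26), Tyk2 (0.40 and 0.31) and Socs2 (0.40 and 0.45) kept an adjusted p-value under 0.05 and fell under the fold threshold. The sign of each member was the same in each alternative run. With the median of all genes subtracted, the deposited values gave 1.39 for Socs3, 0.48 for Socs2, 0.46 for Tyk2, 0.37 for Jak3, -0.26 for Jak1 and -0.39 for Stat5a.

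**Figure D3:**
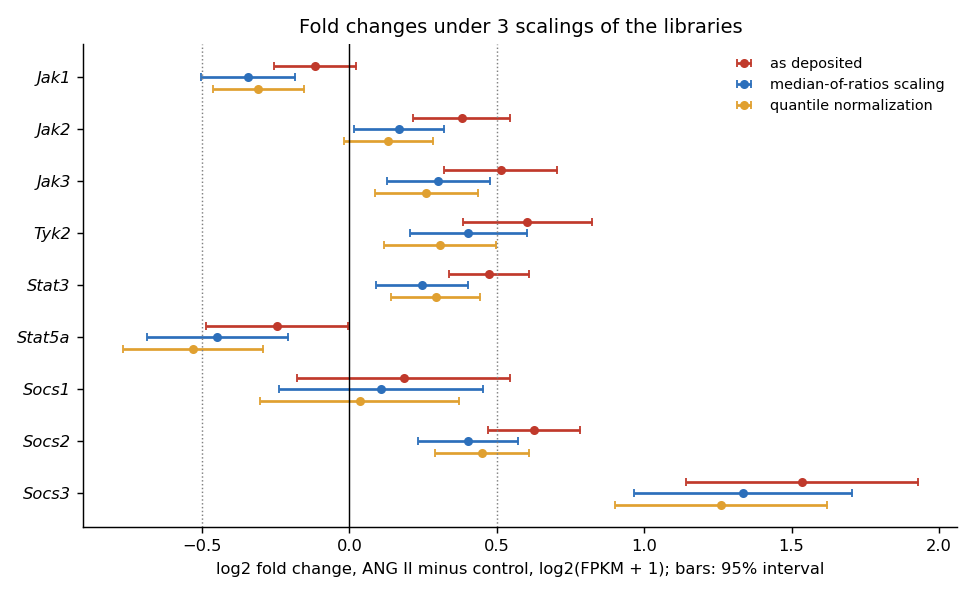
Log2 fold change of each gene, ANG II minus control on log2(FPKM + 1) (horizontal axis), with the 95% interval, from deposited values (red), median-of-ratios scaling (blue) and quantile normalization (yellow). Dotted lines mark the fold threshold of 0.5, and Socs3 is the only member beyond it on the higher side in all 3 (1.53, 1.33 and 1.26).

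Shares within a family do not depend on the scaling of a library, because each library's scale cancels. Jak1 made up 85.8 ± 1.65% of the summed level of the 4 kinases in control, and this share was 79.5 ± 0.88% in ANG II (SD over 4 libraries per group). The ANG II libraries held a smaller share of Jak1 than each control library. Jak3 took 5.37% in control and 7.88% in ANG II, Jak2 took 5.79% and 7.74%, and Tyk2 took 3.02% and 4.86%, all without overlap between groups. Of Stat3 and Stat5a together, Stat3 made up 91.6% in control and 94.8% in ANG II. Of the 3 SOCS members, Socs3 made up 12.1 ± 2.73% in control and 22.7% in ANG II, while Socs2 went from 86.7% to 76.3%. Set against Stat3, Socs3 stood at 0.0467 of the Stat3 level in control and at 0.114 in ANG II, a ratio 2.44 times higher. The Socs2 to Stat5a ratio was 3.69 in control and 6.94 in ANG II.

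The size of these shares depended on the transcript length used, and the direction did not. The deposited values had been divided by the mean length of a gene's annotated transcripts, which for Jak1 is 1285.2 bases against 4906 for its longest transcript, and for Stat3 1687.3 against 6042. With the longest transcript, an alternative chosen after seeing the data, Jak1 held 66.2% of the kinase level in control and 55.6% in ANG II. Jak3 then held 13.5% and 18.1%, Stat3 held 83.2% and 89.3% of the STAT pair, and Socs3 held 14.6% and 26.8% of the SOCS level. The Socs2 shares, 82.0% and 70.4%, overlapped between groups on this length. The Socs2 to Stat5a ratio was then 2.01 and 3.79, and the Socs3 to Stat3 ratio 0.0718 and 0.175.

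**Figure D4:**
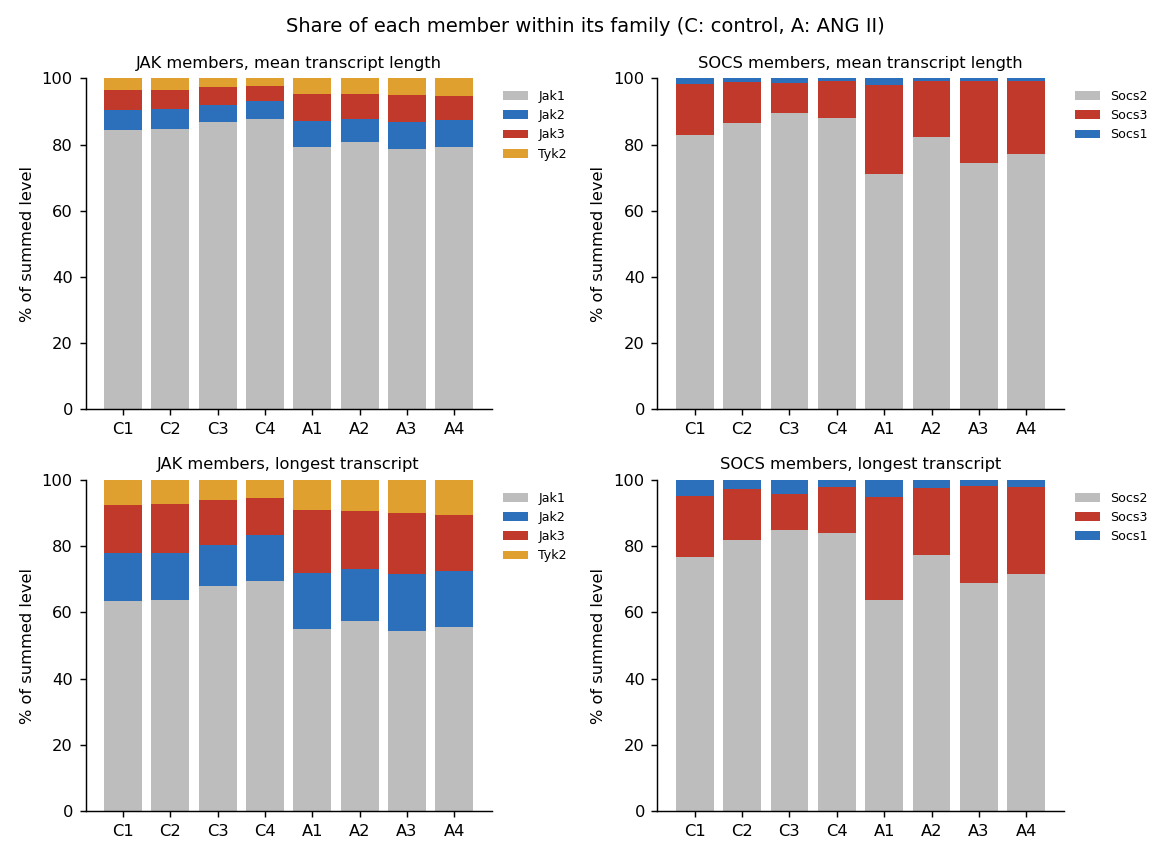
Share of each gene in the summed per-length level of the JAK members (left) and SOCS members (right), in percent, for control libraries C1 to C4 and ANG II libraries A1 to A4, with the deposited mean transcript length (top) and the longest transcript (bottom). Jak1 shrinks from a mean of 85.8% to 79.5% and Socs3 grows from 12.1% to 22.7% (top row).

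On the per-length scale of the longest transcript, the order in control was Jak1 (41.0), Stat3 (25.5), Socs2 (10.2), Jak2 (8.46), Jak3 (8.35), Stat5a (5.16), Tyk2 (4.07), Socs3 (1.82) and Socs1 (0.422 FPKM). Socs2, Jak2 and Jak3 overlapped each other in control, as did Stat5a and Tyk2. In ANG II the order was Jak1 (37.7), Stat3 (35.4), Socs2 (15.9), Jak3 (12.3), Jak2 (11.3), Tyk2 (6.55), Socs3 (6.14), Stat5a (4.23) and Socs1 (0.64 FPKM). Jak1 and Stat3 overlapped there, as did Jak3 and Jak2. Socs3, whose control range lay below those of Stat5a and Tyk2, overlapped both in ANG II. On the deposited lengths this differed: Socs3 overlapped Tyk2 in control, and in ANG II its 10.01 to 18.3 FPKM lay above each library of Tyk2 and Stat5a, at a mean next to those of Jak3 and Jak2 (14.3, 14.2 and 14.0 FPKM), with overlapping ranges.

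Within groups, the marker sums were set beside the members. Control replicate 1 had the highest leukocyte, erythroid, endothelial, cardiomyocyte and atrial sums of the control libraries, with 487 FPKM of erythroid markers against 96.8 to 162 FPKM in the other control libraries. It was also the highest control library for Jak2, Jak3, Tyk2, Socs1 and Socs3. For Jak1, Stat3, Stat5a and Socs2, control replicate 1 was not the highest control library. The leukocyte sum was highest in ANG II replicate 3. Among the ANG II libraries that replicate was second for Jak3, Tyk2, Stat5a and Socs3, lowest but 1 for Jak2 and lowest for Jak1, Stat3, Socs1 and Socs2.

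Genes around the members were read from lists chosen with earlier results of these data known. The other JAK, STAT and SOCS family genes were near the background: 0 of 9 tested were called by limma in either direction (14.0% higher and 1.41% lower over all genes), and 0 were called by voom on recovered fragments (18.9% and 2.01%). An adjusted p under 0.05 was reached by 3 of the 9, against 28.4% higher and 4.91% lower over all genes, and the same number had an unadjusted p under 0.05. Those 3 were Stat5b, Stat6 and Socs5, named after their values were seen. Stat5b, the paralog of Stat5a, was at 23.6 to 25.4 FPKM in control and 18.5 to 21.1 FPKM in ANG II without overlap (log2 fold change -0.31, limma adjusted p = 0.00319), and both scaling alternatives called it lower (-0.53 in each). Stat6, the factor of interleukin 4, had 0.40 and Socs5 had 0.30. Cish, a SOCS-type inhibitor driven by STAT5 and likewise named after its values were seen, had -0.11 with overlapping groups. The median over this list was 0.17 as deposited, and its sign turned with median-of-ratios scaling (-0.04) and quantile normalization (-0.09).

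Of 27 cytokine ligands, 14 were tested, 2 were called higher and 1 lower (14.0% and 1.41% of all genes). The list's median was 0.18 on the log2 scale. The share of higher calls, 14.3%, was near the 14.0% of all genes. These low genes depended on the scale. A pseudocount of 0.1 called 4 higher and 1 lower with a median of 0.70, where 3816 of 19364 genes were called in either direction. By voom 5 were called higher (18.9% of all genes) and 1 lower (2.01% of all genes), with a median of 1.00. Median-of-ratios scaling and quantile normalization each called 1 ligand higher (8.62% and 7.3% of all genes) and 1 lower (4.15% and 5.09% of all genes). The medians were then 0.14 and 0.09. Il6, the founding gp130 ligand, had 4, 0, 0 and 1 fragments in control and 30, 28, 21 and 11 in ANG II. The ANG II libraries were at 0.54 to 1.55 FPKM, all above control, with a log2 fold change of 0.98 (limma adjusted p = 0.00121). At so few control fragments this value depends on the pseudocount: it was 2.98 with a pseudocount of 0.1 and 4.22 by voom, as Osm had 2.59 and 3.86. Osm, a gp130 ligand of macrophages and other blood cells, had 3, 0, 2 and 0 fragments in control and 8, 8, 21 and 67 in ANG II (0.85, limma adjusted p = 0.047), and 11 of 16 alternatives did not call it. Without ANG II replicate 4, which held the 67 fragments, its log2 fold change was 0.52. Il15, which signals through the common gamma chain, was lower (-0.54, limma adjusted p = 0.0195) although its groups overlapped, and 4 of 17 alternatives lost the call. Clcf1, Epo, Il2, Il21 and Il3, named after their values were seen, were listed at 0 in every library.

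Of the receptors, 17 of 32 tested cytokine and hormone receptor genes were called higher and 0 lower (14.0% and 1.41% of all genes), with a median of 0.63. Csf2rb2, a beta chain for interleukin 3, and Csf2rb, the beta chain shared by interleukin 3, interleukin 5 and GM-CSF, had log2 fold changes of 1.39 and 1.34, and they share 18.9% and 12.3% of their 50-base words with each other, so reads could be split between them. Il4ra, the interleukin 4 receptor chain, went from 7.53 to 8.93 FPKM in control to 18.3 to 25.2 FPKM in ANG II (1.30, limma adjusted p = 1.7e-05). Il10ra, the interleukin 10 receptor chain of leukocytes, had 1.29. Il6ra (0.60, called) and Osmr (0.77, called) bind interleukin 6 and oncostatin M, and the shared chain Il6st, which encodes gp130, had 0.23 and was not called; these 3 were named after their values were seen. Ghr, the growth hormone receptor, also named after its values were seen, was at 114.9 to 119 FPKM in control and at 81.4 to 93.7 FPKM in ANG II (-0.39, limma adjusted p = 0.000339). It missed the fold threshold as deposited and was called lower by median-of-ratios scaling (-0.62) and quantile normalization (-0.56), and quantile normalization also called Cntfr, a receptor chain of ciliary neurotrophic factor (-0.50). Those scalings called 13 and 10 receptors higher (8.62% and 7.3% of all genes), with medians of 0.44 and 0.34. At an unadjusted p under 0.05, 2 receptors were lower as deposited (7.09% of all genes), Ghr and Ifngr2, an interferon gamma receptor chain (-0.23). Ifngr2 and Cntfr were also named after their values were seen.

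Of 14 negative regulators outside the SOCS family, 4 were called higher and 0 lower (14.0% and 1.41% of all genes), with a median of 0.36. Median-of-ratios scaling and quantile normalization each called 3 higher (8.62% and 7.3% of all genes), with medians of 0.16 and 0.10. The phosphatases Ptpn6 (1.45) and Ptprc (1.41) are known from leukocytes, and Ptprc is itself one of the leukocyte markers. Ptpn1, a phosphatase of JAK2 and TYK2, rose from 15.5 to 16.8 FPKM in control to 24.0 to 30.7 FPKM in ANG II (0.73, limma adjusted p = 0.000109). Pias3, an inhibitor of STAT3, had 0.58 and lost its call in 3 of 17 alternatives.

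Of 19 genes known as STAT3 targets, 11 were called higher and 0 lower (14.0% and 1.41% of all genes), with a median of 0.62. Median-of-ratios scaling called 9 higher (8.62% of all genes) with a median of 0.42. Quantile normalization called 8 higher (7.3% of all genes) with a median of 0.40. Timp1, a metalloproteinase inhibitor, had 3.99 and Serpina3n, an acute phase protease inhibitor, had 3.91. Timp1 went from 1.90 to 2.58 FPKM in control to 33.1 to 85.4 FPKM in ANG II. Junb, a transcription factor, had 1.55 and Lcn2, a siderophore-binding protein, had 1.53. In the negative regulators and the STAT3 targets, 0 genes were lower at an unadjusted p under 0.05 by limma (7.09% of all genes), and voom called 0 lower in these lists and in the receptors (2.01% of all genes). Many of these target genes have other regulators besides STATs. Opposite-strand genes covered 9.51% of the exon bases of Il4ra, 7.52% of Junb and 6.96% of Ptpn6, and Serpina3n shared 6.9% of its 50-base words with Serpina3e-ps, so these values are less certain.

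**Figure D5:**
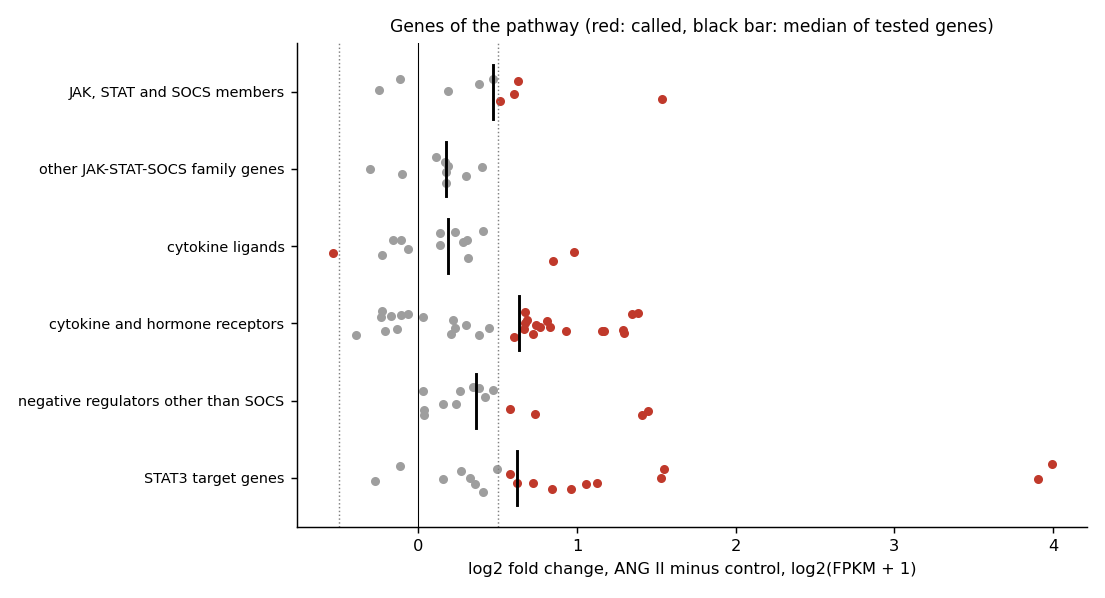
Log2 fold change, ANG II minus control on log2(FPKM + 1) (horizontal axis), of each tested gene in the members and 5 lists around them, with called genes in red, other genes in grey and the median of each list as a black bar. Medians lie between 0.17 for the other family genes and 0.63 for the receptors, against 0.15 over all tested genes, as deposited; the median of the other family genes is below 0 under both other scalings.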

How the data were processed

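RNA-seq libraries of oligo(dT)-enriched RNA from 4 control and 4 ANG II left ventricles were analysed, grouped by their labels; the extraction label names CRC cells, whereas the tissue label and the markers are cardiac. The study calls its sequenced samples biological replicates and names more per group than the 4 analysed here. The labels do not tie a library to an animal, so p-values measure the spread between these samples. The authors deposited FPKM values per gene, 1 column per library, with no pooling. Bowtie2, HISAT and RSEM are named in the submitters' processing notes, and the genome build, annotation and use of strand were not given in the sources used here. The members and gene lists were chosen with earlier results of these data known.

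Multiplying the values by a gene's mean transcript length (GENCODE M21, GRCm38, 55141 of 55679 gene IDs matched) gave whole fragments: 98.5% of values under 60 fragments lay within 0.1 of a whole number. This gave 14455654 to 16564828 fragments per library; fragments carry counting error only, with no molecular identifiers.

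limma 3.58.1 in R 4.3.3 (lmFit, eBayes with trend) was run on log2(FPKM + 1) for genes averaging 0.1 FPKM or more, without a block, after the study's own use of limma. The study gives its thresholds (adjusted p under 0.05, absolute log fold change above 0.5) without a base, and base 2, the pseudocount and the filter were chosen here. Fold changes on this scale understate those of low genes. Exact two-sided permutation tests used the 70 allocations of 8 libraries. On simulated data of the control against ANG II comparison (18625 genes, dispersion 0.02), limma called 16 of 100 genes changed 1.5-fold, 74 of 100 changed 3-fold and 8 unchanged genes. Alternatives changed the pseudocount, filter, scaling, trend, block, tool (voom) or threshold, or left out 1 library. Replicate numbers did not pair the libraries: correlations of same-numbered deviations were -0.012, 0.092, -0.043 and 0.00074. Named genes are the 9 members, up to 4 called genes per list by absolute log2 fold change, markers, and the 2 genes with the nearest profile to each called member; others are marked. Some genes that the rule picks, and 1 gene list, are not reported here singly; counts over all genes and over lists keep them. Other steps used scipy 1.17.1, pandas 2.3.3, numpy 2.4.6 and matplotlib 3.10.9 under Python 3.11.15.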

Additional observations from a re-analysis of the deposited data

Results flagged for a closer look

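Socs1 in the ANG II group had 1 library far from the other 3. ANG II replicate 1 was at 1.27 FPKM and the others at 0.395 to 0.485 FPKM, a gap of 0.898 of the whole range of the group, above the limit of 0.829 for 4 samples. Among 18 groups of 4 libraries, 9 genes in each of 2 conditions, this was the 1 gap past the limit, and chance gives about 1 in 20. Without ANG II replicate 1 the ANG II range lay inside that of the control libraries, at 0.395 to 0.485 FPKM against 0.276 to 0.559 FPKM in control. The same library also had the highest Socs3 (18.3 FPKM) and Jak3 (15.4 FPKM) of the ANG II group.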

How the results depend on the processing

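Of the alternatives, those of scaling and of the fold threshold changed how many members were called, as did leaving out ANG II replicate 1. As deposited 4 members were called, and 1 was called with median-of-ratios scaling, 1 without mitochondrially encoded genes and the 10 genes of highest mean, 2 with quantile normalization and 1 above an absolute log2 fold change of 1. Leaving out 1 library gave 3 to 4 calls: Jak3 fell under the threshold without ANG II replicate 1, and without control replicate 4 Jak3 was replaced by Stat3. The fit with a replicate block called 4 members and 39 genes of the pathway lists, so it lost no member; the numbers showed no pairing. Pathway list calls numbered 38 as deposited, 17 above an absolute log2 fold change of 1 and 35 to 44 when 1 library was left out. They numbered 31 with median-of-ratios scaling, 28 with quantile normalization and 34 without mitochondrially encoded genes and the 10 genes of highest mean. Among all tested genes, calls numbered 2981 as deposited, 6447 without a fold threshold and 795 above 1. No sign changed among the 9 members and the called list genes that were refitted under the alternatives. Fragments were few for Socs1, at 12 to 55 per library, and for Il6 and Osm, at 0 to 4 in control. Whether depth set their results was not tested. FPKM fixes each library's total, so differences are relative; an absolute change could not be measured.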

Other observations

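The genes whose profile over the 8 libraries was nearest to that of each called member were read over 11858 genes averaging 1 FPKM or more, as the root mean square difference of mean-centred log2(FPKM + 1). For Socs3 they were Ly86, a partner of a Toll-like receptor relative (0.127), and Ctsz, a lysosomal protease (0.162), against a median of 0.724 over all genes compared. For Socs2 they were Usp6nl (0.0574) and Tbc1d14 (0.0592), against 0.287. Jak3 was nearest to Txndc17 (0.0499) and Kif3b (0.0553), against 0.249. For Tyk2, Sept9 was among them (0.0531), against 0.279. These distances rest on 8 libraries in 2 groups and describe likeness only.

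In the promoter windows of the pathway lists, TTCNNNGAA was found in 3 of 21 windows of STAT3 targets (14.3%) and in 8.3% of all windows. The motif was not confined to STAT3 targets. It was found in 6 of 40 windows of the receptors, 1 of 8 of the other family genes and 2 of 23 of the ligands. The negative regulators had it in 0 of 12 windows. Whether any of these small counts differs from the share of all windows was not tested. Genes can have more than 1 window, so these shares count windows and not genes.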
